A study of Mus musculus with 20 samples.

Results

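The nuclear genes of the mitochondrial respiratory chain were taken from the raw count table by symbol: every row beginning with *Nduf*, *Uqcr*, *Atp5* or *Cox4* to *Cox8*, with *Sdha*, *Sdhb*, *Sdhc*, *Sdhd* and *Cycs*. This gave 93 members of 24411 genes, with no pseudogene among them. Sorted by complex, they were 36 complex I subunits, 7 complex I assembly factors of the *Ndufaf* group, 4 complex II subunits, 8 complex III genes, cytochrome c (*Cycs*), 20 complex IV genes and 17 *Atp5* genes of complex V. The 13 subunits encoded by mitochondrial DNA were not in the count table under their mt- symbols, so they were not analysed here. The *Atp5* symbols include *Atp5sl* and *Atp5s*, which RefSeq names *Dmac2* and *Dmac2l*, and the product of *Dmac2* is known for its role in complex I assembly rather than in the ATP synthase.

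Complexes I and II pass electrons from NADH and succinate to coenzyme Q, complex III passes them to cytochrome c, and complex IV hands them to oxygen. The proton gradient that complexes I, III and IV build drives ATP synthesis by complex V. Tubule cells of the kidney, above all in the proximal tubule and thick ascending limb, spend much ATP on salt transport and are rich in mitochondria.

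RNA was sequenced from whole kidneys of 20 mice on a C57BL/6 background, 5 in each of 4 groups: male control, male mutant, female control and female mutant. Mutants were Pkd2 fl/fl with Pax8 rtTA and TetO Cre, and controls were littermates that lacked 1 of the 2 transgenes, so that they carried floxed *Pkd2* without recombination. All mice received doxycycline at 50 mg/kg from P27 to P29, controls included, and kidneys were taken at P125. The Pax8 promoter drives rtTA along all tubule segments, so the deletion was not directed at 1 cell type, and *Pkd2* encodes polycystin-2, a cation channel whose loss causes cysts. There were 3 litters (A to C), and a mouse is named by sex, genotype and number, so that FM3 is the third female mutant and MC4 the fourth male control. Every library was a separate mouse.

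Totals were between 11307741 and 19324073 counts per library. *Pkd2*, the targeted gene, had 193 to 306 normalised read counts (CPM, scaled to library size) in female controls, 94.7 to 182 in female mutants, 250 to 332 in male controls and 110 to 133 in male mutants, with no overlap within either sex. Library FM4 was the smallest and listed 14850 genes, against 16776 to 17724 in the others. FM3, FC3, FC5 and MM4 had between 24 and 95 counts of *Ucp1*, a brown fat gene, and the others at most 9.

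Of the 93 members, 77 had a promoter window in RefSeq (GRCm38.p6, 250 bases before to 50 after the start). The letters CGCANGCGC, the core of an NRF1 site, stood in 27 of the 77 windows (35.1%), against 7.12% of the windows of 27025 genes. Counted on both strands, CCGGAAG, an ETS site, was in 22.1% of member windows and 9.93% of all windows, and AAGATGGCG, a YY1 site, in 10.4% and 1.64%. AAGGTCA, the core site of estrogen-related receptors, was in 10.4% and 5.38%, and GGGCGG, an Sp1 site, in 45.5% and 38.2%. None of these strings contains another. The windows of 4 members whose values are described below are shown because they differ in these letters. Capitals mark CGCANGCGC, on either strand, in *Sdha* (chr13:74350191-74350490, minus strand; 3 matches) and *Uqcrc1* (chr9:108936398-108936697, plus strand; 3 matches, of which 2 overlap). In *Ndufs8* (chr19:3912725-3913024, minus strand) capitals mark the 1 match to CCGGAAG, which lies on the other strand. In *Cox8b* (chr7:140900397-140900696, minus strand) none of the 5 strings was found. A match describes letters only.
Sdha: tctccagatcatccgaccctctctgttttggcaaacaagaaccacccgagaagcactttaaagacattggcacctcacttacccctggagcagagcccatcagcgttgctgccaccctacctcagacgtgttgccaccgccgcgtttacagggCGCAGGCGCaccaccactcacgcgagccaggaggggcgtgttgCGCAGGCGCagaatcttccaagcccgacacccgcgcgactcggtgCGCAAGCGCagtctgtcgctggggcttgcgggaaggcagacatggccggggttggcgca
Uqcrc1: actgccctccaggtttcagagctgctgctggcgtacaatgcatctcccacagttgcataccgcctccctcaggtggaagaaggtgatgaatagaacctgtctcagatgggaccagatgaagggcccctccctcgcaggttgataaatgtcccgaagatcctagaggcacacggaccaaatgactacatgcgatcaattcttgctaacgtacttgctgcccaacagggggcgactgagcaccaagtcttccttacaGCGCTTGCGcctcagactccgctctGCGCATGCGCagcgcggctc
Ndufs8: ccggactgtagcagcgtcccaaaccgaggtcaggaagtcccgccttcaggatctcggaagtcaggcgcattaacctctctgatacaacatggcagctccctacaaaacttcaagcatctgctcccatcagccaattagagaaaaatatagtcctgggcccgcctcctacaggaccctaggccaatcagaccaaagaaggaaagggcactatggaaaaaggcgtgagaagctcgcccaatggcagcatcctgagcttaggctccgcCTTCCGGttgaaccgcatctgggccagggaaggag
Cox8b: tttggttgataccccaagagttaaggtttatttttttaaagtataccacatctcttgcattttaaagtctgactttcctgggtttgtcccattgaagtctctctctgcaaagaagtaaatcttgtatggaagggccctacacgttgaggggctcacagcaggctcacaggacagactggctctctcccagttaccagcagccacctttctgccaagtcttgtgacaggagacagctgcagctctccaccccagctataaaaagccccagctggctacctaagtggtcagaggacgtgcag

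The level of most members rose and fell together from mouse to mouse. For 86 members with a mean of at least 5 CPM, the log2 CPM of each gene was set against its mean over the 20 mice and averaged per mouse, which is called the chain mean here. After a mouse's chain mean was taken away, the SD of a member over the 20 mice had a median of 0.118, and 76 of 86 members were under 0.2. The tightest was *Uqcrh*, the hinge protein of complex III, at 0.0375, and the loosest were *Cox6b2*, a form of complex IV subunit 6B, at 0.55 and *Uqcrc2*, core protein 2 of complex III, at 0.424. The members are therefore not separate replicates of any difference between groups.

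The chain mean was -0.03, 0.08, -0.18, 0.14 and 0.51 in female controls FC1 to FC5, and 0.07, 0.00, -0.82, -0.20 and 0.11 in female mutants FM1 to FM5. In males it was 0.12, 0.03, 0.40, 0.03 and 0.19 in controls MC1 to MC5, and -0.11, 0.07, -0.15, -0.28 and 0.01 in mutants MM1 to MM5. FM3 was the lowest mouse and FC5 the highest, and mutants overlapped controls in both sexes. FM3 was also the lowest mouse in each of the 7 classes, from -0.67 for complex I assembly factors to -1.10 for *Cycs*. As a share of all counts, the 93 members held 2.87% ± 0.388 (SD, n = 5) in female controls, 2.50% ± 0.428 in female mutants, 2.72% ± 0.200 in male controls and 2.36% ± 0.147 in male mutants.

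**Figure D1:**
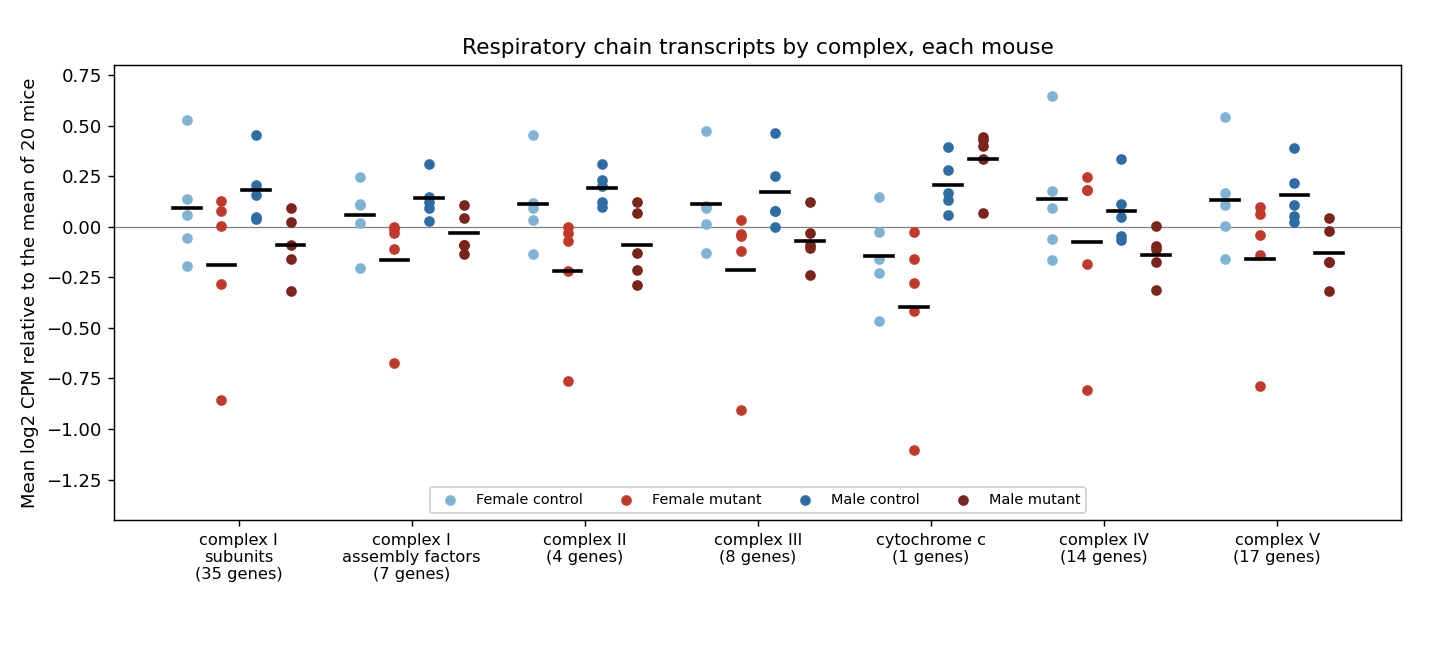
Mean log2 CPM of the members of each class relative to the mean of the 20 mice, by class on the horizontal axis, with 1 point per mouse and a black line at the mean of each group of 5. The low point of the female mutants in every class is FM3, and *Cycs* differs in pattern from the complexes, with both male means above both female means.

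To ask whether loss of *Pkd2* changed respiratory chain transcripts, mutants were compared with controls over all 20 mice within groups of sex and litter. Estimates were small and went 1 way. Of 89 members that passed the low-count filter, 88 had an estimate below 0 (98.9%, against 52.5% of 14191 genes), with a median log2 fold change of -0.24, a difference of -15.1%, where the median of all genes was -0.01. At an adjusted p under 0.01, 4 members fell (4.49%, against 5.86% of all genes) and none rose (against 10.0% of all genes), so the share called by edgeR was no larger than the background. At an adjusted p under 0.05, 30 of 89 were lower (33.7%) against 11.5% of all genes. No member had all 10 mutants below all 10 controls (0.261% of all genes did). In bulk kidney, fewer cells of a type and less RNA per cell cannot be told apart.

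*Atp5sl* had the smallest adjusted p (chromosome 7, 25619414 to 25625550). Its CPM was 67.8, 70.3, 57.4, 65.5 and 78.7 in FC1 to FC5, 60.7, 48.2, 33.8, 62.9 and 68.6 in FM1 to FM5, 65.0, 67.0, 74.2, 63.0 and 70.7 in MC1 to MC5 and 38.1, 54.7, 48.1, 41.1 and 52.9 in MM1 to MM5. Every male mutant lay below every male control, while the female groups overlapped. The joint log2 fold change was -0.41 (SE 0.0961, adjusted p = 0.00362).

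*Ndufs1*, the largest subunit of complex I and part of its NADH-oxidising arm, lies on chromosome 1 (63143592 to 63176822). It had 293, 311, 271, 279 and 331 CPM in female controls and 228, 210, 165, 258 and 264 in female mutants. In males it had 340, 332, 319, 307 and 342 in controls and 227, 317, 286, 268 and 331 in mutants. All 5 female mutants were below all 5 female controls, and the males overlapped. The joint log2 fold change was -0.30 (SE 0.0801, adjusted p = 0.0095). Of its 8086 exon bases, 498 are shared with other annotated genes.

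*Ndufs8*, an iron-sulfur subunit of complex I whose promoter window is printed above, had 169, 176, 149, 180 and 249 CPM in female controls and 165, 148, 97.2, 154 and 176 in female mutants. Male controls had 171, 172, 215, 161 and 187 and male mutants 136, 164, 135, 120 and 151. The groups overlapped in both sexes, by 1 mouse in males, MM2 (joint log2 fold change -0.31, SE 0.0818, adjusted p = 0.00845). *Ndufaf7*, a methyltransferase that modifies a complex I subunit during assembly, fell by 0.29 on the log2 scale (SE 0.0719, adjusted p = 0.0055), with means of 52.8 ± 5.53 CPM in female controls, 43.3 ± 7.94 in female mutants, 52.7 ± 2.67 in male controls and 42.4 ± 4.39 in male mutants (SD, n = 5). Of the 4 called members, 3 are complex I subunits or assembly factors, classes that hold 42 of the 89 members tested (47.2%). The other, *Atp5sl*, was counted in complex V by its symbol, although its product is known for complex I assembly, so this tally depends on the sorting by symbol.

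Which members passed depended on single mice. Without MC4 no member was called, and without FM4 13 were. The count was 1 without FC2, FC4, FC5, FM5, MM1 or MM4, 2 without MC1, MC2, MM3 or MM5, 6 without FC1 or FM1, 9 without FM2 and 10 without FM3, and it stayed at 3 to 5 without any of the other 4 mice. *Atp5sl* was called in 19 of these 20 fits, *Ndufaf7* in 12, *Ndufs8* in 7 and *Ndufs1* in 6. The median of the members was between -0.27 and -0.19 in all 20, and DESeq2's Wald test called 21 of 89 members, all lower (23.6%, against 8.84% of all genes called lower by that test).

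Complex II was the most even class. All 4 subunits had estimates between -0.30 and -0.26, and all 4 were between 0.01 and 0.05 in adjusted p, none under 0.01. *Sdha*, the flavoprotein that oxidises succinate, had 1099, 1184, 1044, 1058 and 1275 CPM in female controls and 863, 834, 692, 1035 and 1015 in female mutants. It had 1151, 1089, 1120, 1091 and 1148 in male controls and 845, 1079, 936, 911 and 1088 in male mutants. It was the only member whose mutants lay below its controls in each sex without overlap. In males 6.56% of all genes were lower without overlap and in females 3.33%, and the share in both sexes was not computed. The margins were narrow, with MM5 (1088) close to MC2 (1089) and FM4 (1035) close to FC3 (1044). The joint log2 fold change of *Sdha* was -0.27 (SE 0.0742, adjusted p = 0.0108). *Sdhb*, the iron-sulfur subunit, was at -0.30 and the membrane anchors *Sdhc* and *Sdhd* at -0.26 and -0.27.

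In complex I, 35 of 36 subunits were tested, all 35 estimates were below 0 (median -0.23, from -0.32 to -0.13), 2 were called and 12 had an adjusted p under 0.05. The subunits that bind NADH and flavin, *Ndufv1* and *Ndufv2*, were at -0.29 (adjusted p = 0.0207) and -0.26 (adjusted p = 0.0626). *Ndufs5* was listed at 0 in all 20 mice. The 7 assembly factors had a median of -0.19, and 1 was called. All 8 complex III genes had estimates between -0.31 and -0.23, with none called and 2 under 0.05, *Uqcrc1* at -0.23 (adjusted p = 0.0281) and *Uqcr11* at -0.30 (adjusted p = 0.0428). *Uqcrfs1*, the Rieske iron-sulfur protein, was at -0.24 (adjusted p = 0.0516).

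Complex IV had the widest range, from -0.39 to 0.29 over 17 tested genes, with none called. These include tissue forms of low level, such as *Cox4i2*, *Cox6a2* and *Cox6b2*, with means of 0.997, 1.3 and 10.95 CPM in female controls. *Cox7b* was at -0.37 (SE 0.0996, adjusted p = 0.0104), just past the threshold, and *Cox4i1*, *Cox5a* and *Cox5b*, which are found in every tissue, were at -0.20, -0.15 and -0.24, with adjusted p of 0.215, 0.325 and 0.14. The only member with an estimate above 0 was *Cox6b2* at 0.29 (SE 0.14, adjusted p = 0.14). In complex V, *Atp5a1*, *Atp5b* and *Atp5c1*, the α, β and γ subunits of the catalytic head, were at -0.27, -0.22 and -0.26, with adjusted p of 0.0151, 0.0612 and 0.0129. The genes for its c ring, *Atp5g1*, *Atp5g2* and *Atp5g3*, were at -0.30, -0.07 and -0.24, and only *Atp5g1* had an adjusted p under 0.05 (0.0275). *Cycs* was at -0.06 (adjusted p = 0.734), and its sign turned to 0.0047 without FM3.

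**Figure D2:**
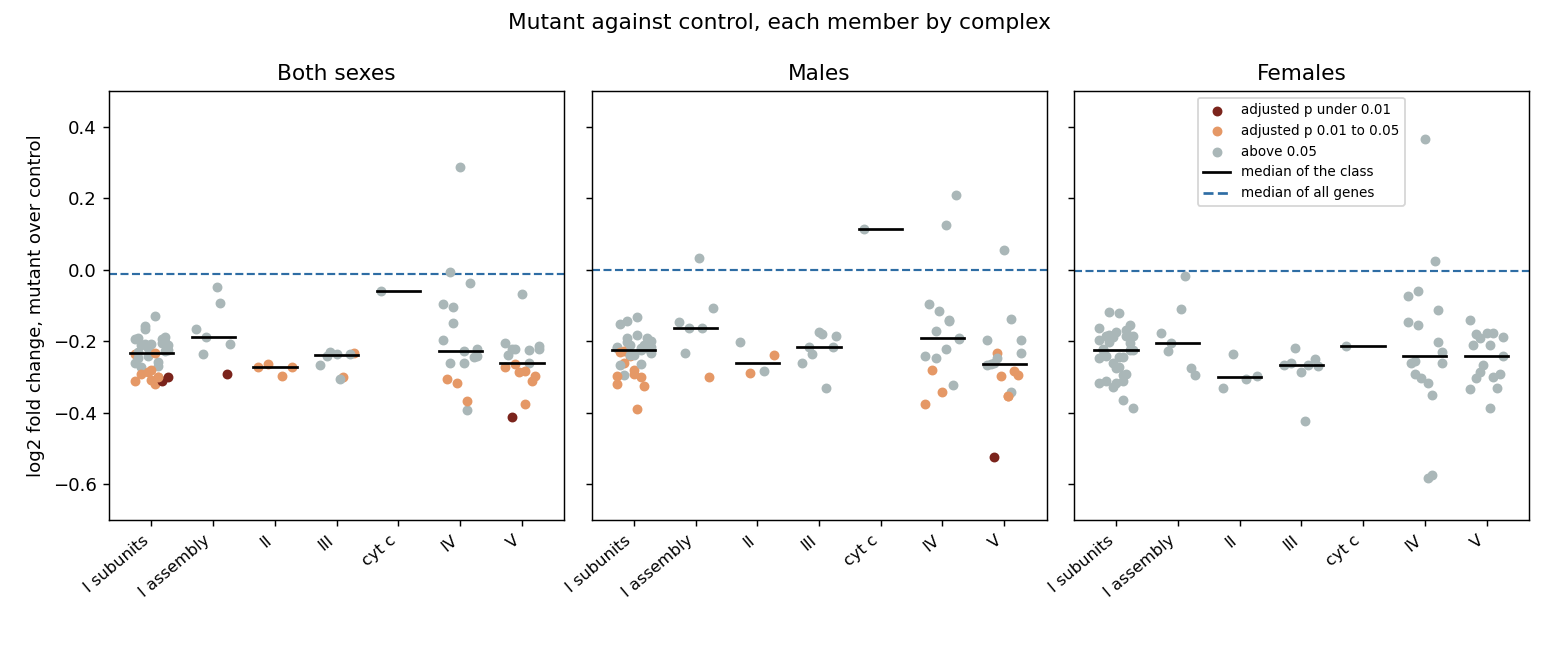
Log2 fold change of mutant over control for each tested member, by complex, in both sexes together and in males and females alone, coloured by adjusted p, with the median of each class (black) and of all genes (dashed). Nearly all points lie below the line of all genes, 4 pass an adjusted p of 0.01 with both sexes together, 1 passes in males and none in females.

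Within males, 1 of 88 members fell, *Atp5sl* (log2 fold change -0.52, SE 0.0977, adjusted p = 0.00442), against 3.20% of 14010 genes called lower. None rose (against 5.25% of all genes), 24 were lower at an adjusted p under 0.05 (27.3%, against 8.52% of all genes) and the median was -0.23. *Atp5sl* was no longer called without MC1, MC2, MC3, MC4, MC5, MM4 or MM5, or with all 20 mice in 1 fit, and without MM2 7 members were called. In 8 of 88 members (9.09%, against 6.56% of all genes) every male mutant was below every male control: *Atp5a1*, *Atp5s*, *Atp5sl*, *Cox7b*, *Ndufa5*, *Ndufb5*, *Ndufv2* and *Sdha*. No member was higher without overlap.

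Within females, edgeR called none of 90 members, against 0.180% of 14439 genes called lower and 0.457% called higher, although the median of the members was -0.24. None was under 0.05 either, where 1.60% of all genes were lower. At an unadjusted p under 0.05 there were 10 members (11.1%, against 20.6% of all genes), and DESeq2's Wald test also called none (against 6.43% of all genes). *Ndufs1* came nearest (log2 fold change -0.39, SE 0.115, adjusted p = 0.0783). Only *Ndufs1* and *Sdha* were lower without overlap (2.22%, against 3.33% of all genes). Over all genes tested, the standard error had a median of 0.15 in females and 0.107 in males. Leaving out FM3 brought the median of the female members to -0.14, and the difference in the chain mean from -0.27 to -0.11. Without FC5, the highest control, that difference was -0.17. With any single female left out it was between -0.34 and -0.11.

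Within litters the mutants were lower in the chain mean in 5 of 6 groups of sex and litter. The difference was -0.21, -0.24 and -0.19 in males of litters A, B and C and -0.35 and -0.40 in females of litters B and C. Males of litter B had 1 control, and litter C had 1 mouse of each sex and genotype. The females of litter B included FM3, and the litter C female control was FC5, the mice with the lowest and highest chain mean. In litter A, with 1 female of each genotype, FM1 was 0.10 above FC1. The difference was below 0 in all 6 groups for complex II, complex III and the complex I assembly factors, and in 5 of 6 for complex I subunits, complex IV and complex V.

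The difference between mutants and controls was then compared between the sexes. No member was called for the sex-by-genotype term, 0 of 90 had an unadjusted p under 0.05 (against 4.17% of 14820 genes), and DESeq2's Wald test gave 0 for both as well. Over all genes none was called by edgeR either (0%), and 0.122% were by the Wald test. The median term was 0.03 for the members and 0.03 for all genes, with a median standard error of 0.198 over all genes, which is close to the size of the members' shift.

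Among the 10 mutants, the level of each member was set against KBW, the weight of 1 kidney as a percentage of body weight, which was 1.68% ± 0.338 in males and 1.18% ± 0.261 in females (SD, n = 5). No member was called (0% of 14416 genes), 9 of 88 had an unadjusted p under 0.05 (10.2%, against 22.3% of all genes), and DESeq2's Wald test called none (against 4.16% of all genes). The median slope was -0.31 per percentage point, against -0.06 for all genes. It was 0.0034 without FM3, which had the highest KBW of the female mutants (1.46%) and the lowest *Pkd2* (94.7 CPM).

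Control males and females differed in 1 of 90 members at an adjusted p under 0.01, against 9.02% of 14123 genes called lower in males and 8.75% called higher. At an adjusted p under 0.05 there were 4, *Cox8b* and *Cox6b2* lower in males and *Cycs* and *Ndufaf4* higher, against 29.8% of all genes in either direction. The member called was *Cox8b*, the form of subunit 8 known from heart, skeletal muscle and brown fat. It passed the low-count filter only through the female controls, where it is high, so its entry into the test was not independent of the difference. It was still called without a low-count filter. It was not tested in the joint comparison, and no member was called with at least 10 counts in every mouse, which removes it. It had 18, 19, 33, 22 and 45 counts in FC1 to FC5 and 0, 1, 0, 3 and 0 in MC1 to MC5. In mutants it had 8, 19, 56, 2 and 17 counts in females and 1, 1, 0, 3 and 4 in males. Female and male controls did not overlap, as was so for 1 other member, *Ndufaf1*, which was higher in males (14.2% of all genes were lower and 9.79% higher without overlap), and female mutants overlapped male mutants only through FM4, the smallest library. Pooled over mice and adjusted for library size, the female controls had 30.1 times the level of male controls (exact 95% interval 11.5 to 112, counting error only, 137 against 4 counts) and the female mutants 10.7 times that of male mutants (5.44 to 24.2, 102 against 9). The fitted log2 difference in controls was -4.57 (SE 0.647, adjusted p = 0.000251), a value that depends on the prior count.

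*Cox8b* was called under every single mouse left out, and without FC3 and FC5 too. Of the brown and white fat markers, *Ucp1* had 43, 88 and 95 counts in FC3, FC5 and FM3, the 3 mice with the most *Cox8b*, and 0 or 1 in FC1, FC2 and FC4, which had 18 to 22 counts of *Cox8b*. *Cfd*, another marker of that list, was also highest in FM3, FC3 and FC5 (6356, 1598 and 1059 counts). MM4, MC4, MC1 and MC2 had 518, 479, 145 and 117 counts of *Cfd*, with 3, 3, 0 and 1 of *Cox8b*. FC1, FC2 and FC4 had 49, 4 and 66 counts of *Cfd*. Of 8 striated muscle markers, *Myh1*, a fast myosin, had 43 to 137 counts in females and 0 to 3 in males, *Myh6* had 0 to 21 and 2 to 14, and the other 6 had at most 6 in any mouse. The part of muscle or fat RNA in the *Cox8b* difference was not tested. In all groups *Cox8b* was a minor form: per kb of exon, *Cox8a* held 99.5% of the *Cox8* total in female controls and 100% in male controls.

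*Cycs*, the carrier between complexes III and IV, was higher in males without passing 0.01. It had 191, 200, 162, 220 and 247 CPM in female controls and 251, 245, 294, 233 and 272 in male controls (log2 difference 0.35, SE 0.101, adjusted p = 0.0218). In mutants it had 220, 185, 104, 167 and 200 in females and 235, 282, 295, 301 and 305 in males (0.70, SE 0.17, adjusted p = 0.0212). Every male mutant was above every female mutant. The same held for *Ndufaf4*, a complex I assembly factor (log2 difference 0.48 in mutants, adjusted p = 0.0309), and these were the only 2 of 88 members without overlap in mutants (2.27%, against 7.98% of all genes higher in males). No member was called between the sexes in mutants, against 3.59% of 14416 genes called higher in males and 1.84% called lower. *Cycs* and *Ndufaf4* were higher at an adjusted p under 0.05 (8.55% of all genes were), 5 members had an unadjusted p under 0.05 (5.68%, against 30.5% of all genes), and DESeq2's Wald test called *Cycs* and *Ndufaf4* (2.27%, against 8.35% of all genes called higher). Without FM3, *Cox7a1* was called instead, lower in males.

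**Figure D3:**
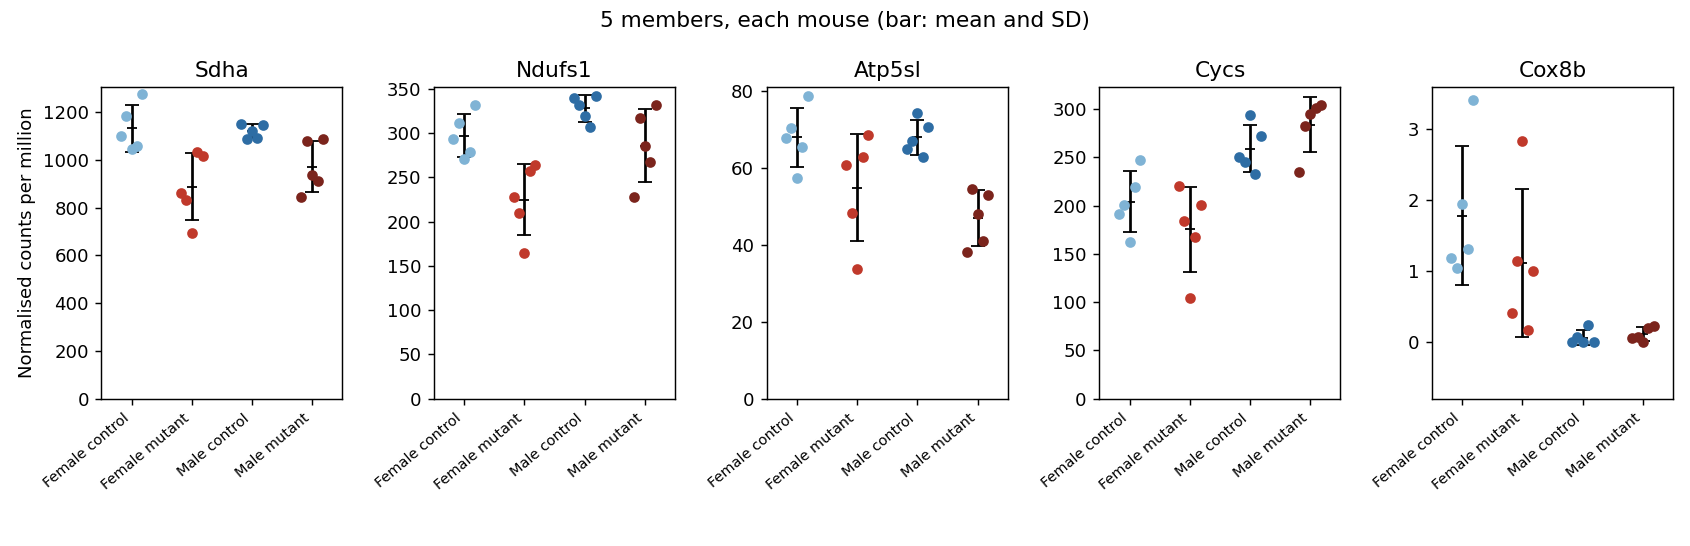
CPM of 5 members in each mouse, by group, with the mean and SD of 5 mice. *Sdha* mutants lie below controls in each sex, *Ndufs1* separates in females and *Atp5sl* in males, *Cycs* is higher in males, and *Cox8b* lies near 0 in males.

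The tissue forms of complex IV subunits were set side by side as CPM per kb of exon. *Cox4i1* held 99.8% of the *Cox4* total in female controls and *Cox4i2*, the form known from lung, 0.186%. *Cox6a1* held 99.6% and the muscle form *Cox6a2* 0.364%, and *Ndufa4* held 98.9% and *Ndufa4l2*, known to respond to low oxygen, 1.07%. *Cox7a1*, the muscle form of subunit 7A, was less rare, with 11.1% ± 1.47 of the *Cox7a1* and *Cox7a2* total in female controls, 13.2% ± 2.96 in female mutants, 7.77% ± 0.659 in male controls and 9.35% ± 1.55 in male mutants (SD, n = 5). *Cox7b2* and *Cox8c*, known from testis, were listed at 0 in all 20 mice. *Cox6b2*, also known from testis, was detected, at 10.9 ± 3.25 CPM in female controls, 14.0 ± 6.04 in female mutants, 6.61 ± 0.614 in male controls and 7.82 ± 1.21 in male mutants (SD, n = 5), with a log2 difference of -0.62 between male and female controls (SE 0.176, adjusted p = 0.0197). The c subunit of complex V came mostly from *Atp5g3*, with 75.6% in female controls and 79.6% in male controls. Over all members the highest levels per kb of exon were those of *Cox8a* (815) and *Atp5b* (797).

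*Uqcrc2* did not follow its partner. *Uqcrc1* and *Uqcrc2* encode the 2 core proteins of complex III. The ratio of *Uqcrc2* to *Uqcrc1* CPM was between 0.597 and 0.768 in 8 mice and between 1.14 and 1.27 in the other 12, with none in between. *Uqcrc2* CPM was 642, 643, 559, 376 and 432 in FC1 to FC5, 310, 489, 212, 593 and 353 in FM1 to FM5, 402, 405, 715, 642 and 717 in MC1 to MC5 and 503, 634, 545, 527 and 383 in MM1 to MM5. Low and high ratios were found in every group and in every litter. For *Uqcrc1* the residual around the chain mean ran from -0.30 to 0.18 on the log2 scale, while for *Uqcrc2* it ran from -0.71 to 0.50. The joint fold change of *Uqcrc2* was therefore poorly measured (-0.31, SE 0.178, adjusted p = 0.223). *Uqcrc2* lies on chromosome 7 (120635189 to 120659523), and 504 of its 2552 exon bases are shared with other annotated genes.

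**Figure D4:**
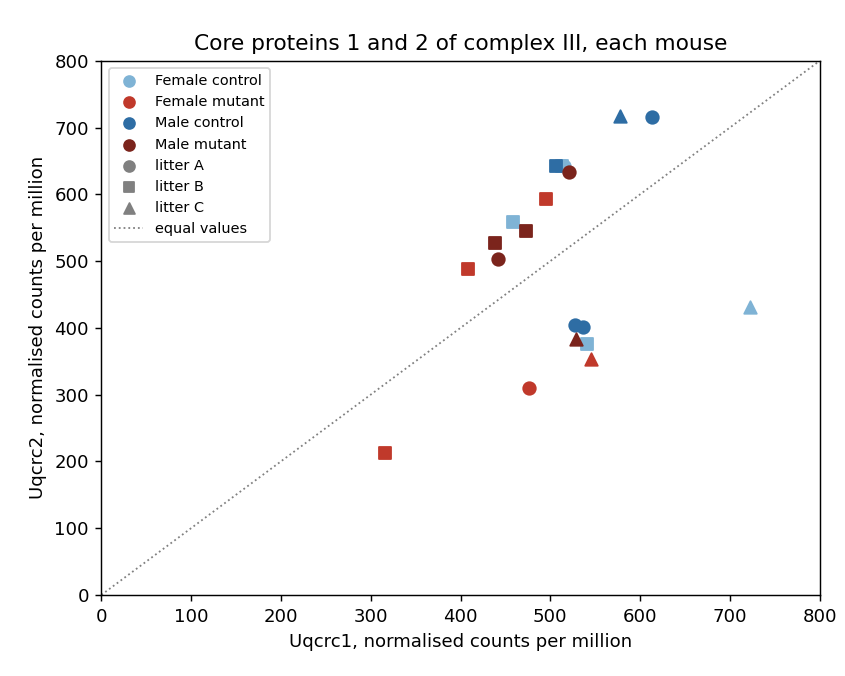
*Uqcrc2* against *Uqcrc1* in CPM, 1 point per mouse, coloured by group and shaped by litter, with a dotted line of equal values. The 12 mice above the line and the 8 below it form 2 bands, and each group and each litter has mice in both.

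The rest of the mitochondrial programme was read from gene lists, set against the 5.86% of all genes called lower and 10.0% called higher in the joint comparison. Of 18 tricarboxylic acid cycle genes, 5 fell (27.8%) and none rose (median -0.25), among them *Pdha1*, the E1 subunit of pyruvate dehydrogenase (-0.45, adjusted p = 0.000197), and *Idh3b* (-0.33, adjusted p = 0.00183). Of 42 other assembly factors, 4 fell (9.52%): *Acad9*, *Ecsit* and *Foxred1*, which act on complex I, and *Uqcc1*, which acts on complex III, at -0.28 to -0.36 (median of the list -0.13). Of 17 regulators of mitochondrial biogenesis, 3 fell (17.6%) and none rose (median -0.07, with 12 of 17 estimates below 0). Those called were *Esrrb* (-0.55, adjusted p = 0.00112), *Ppargc1b* (-0.50, adjusted p = 0.000588) and *Sirt3* (-0.42, adjusted p = 0.0045). Among those not called, *Ppargc1a* was at -0.26 (adjusted p = 0.0184) and *Pprc1* at 0.38 (adjusted p = 0.0162). Of 77 mitochondrial ribosomal proteins 1 fell (1.30%, median -0.12), of 11 coenzyme Q synthesis genes 1 fell (9.09%, median -0.17) and of 14 outer membrane and carrier genes none was called (median -0.12).

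Cell type markers were read in the same comparison. Of 8 markers of the thick limb and distal convoluted tubule, 7 fell (median -0.71), and their summed CPM was 10300 to 11100 in female controls, 5190 to 7500 in female mutants, 7480 to 7740 in male controls and 4720 to 5650 in male mutants. Of 10 proximal tubule markers 2 fell (median -0.21), and of 10 collecting duct markers 6 fell (-0.34). All 6 macrophage markers and 5 of 7 fibroblast and myofibroblast markers rose (1.56 and 1.23), as did 6 of 7 tubule injury genes (2.54). Of 5 podocyte markers 4 fell. Of 8 erythroid markers listed, only 2 passed the low-count filter, *Alas2* and *Slc4a1*. Both fell, and *Slc4a1* is also among the collecting duct markers counted above. None of 6 endothelial and 5 lymphocyte markers was called. Their part in the difference of the members was not tested. The proximal tubule marker mean was lowest in FM3 (-0.80), which also had the lowest chain mean. It was -0.55 in FM1, -0.48 in FM2 and -0.37 in MM1, whose chain means were 0.07, 0.00 and -0.11. How the marker mean and the chain mean relate was not tested.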

How the data were processed

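Kidney RNA of 20 mice, 1 library each, was sequenced. The authors trimmed reads with fastp 0.23.2, aligned them to mm10 with STAR 2.7.10b and deposited raw counts per gene symbol. The counting tool, annotation and strandedness are not given in the sources used here, so reads of overlapping genes may have been split in a way not known here. No column was left without a sample (0).

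The counts were analysed here in R 4.3.3 with edgeR 4.0.16: TMM normalization, filterByExpr, the quasi-likelihood test and Benjamini-Hochberg adjustment over all genes tested, with calls at an adjusted p under 0.01. Fits over all 20 mice (joint, and the interaction of sex with genotype) had a term for each of the 6 combinations of sex and litter, the others a term for litter, and the KBW fit a term for sex. CPM used TMM library sizes, and log2 CPM a prior count of 2. Standard errors were derived from the test statistic. Litters are uneven over the groups, and litter C holds 1 mouse of each group. Depth was 11307741 to 19324073 counts per library, and intervals cover counting error only.

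Coordinates and promoters are RefSeq GRCm38.p6, the same build as mm10, and exon lengths GENCODE. Of the 93 members, 90 matched RefSeq by symbol and 3 by synonym. Members and gene lists were chosen with earlier results of these data known. Named genes are core subunits, tissue forms, called members, the largest changes and list genes that were called; the values of 1 named gene are not reported here. *Ndufs5*, *Uqcrh*, *Uqcr11*, *Ndufaf1*, *Ndufaf4*, *Ndufa5*, *Ndufb5*, *Atp5s*, *Ppargc1a*, *Pprc1*, *Crym*, *Eef2k*, *Tcp11l2* and the mice named were chosen after their values were seen. The alternatives were DESeq2 1.42.0 (size factors or Wald test), TMM without the members, other count filters, an adjusted p under 0.05, no litter term, all 20 mice in 1 fit, and each mouse left out. The procedure was tested on simulated data with larger changes than the members had and with each gene drawn independently. That test does not measure how well a small shift shared by the members is recovered.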

Additional observations from a re-analysis of the deposited data

Results flagged for a closer look

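In groups of 5 mice, 80 sets of values were examined (the chain mean, the mean of each class and 12 members, in 4 groups) for a mouse whose gap to its nearest neighbour exceeds 0.71 of the range of the group, which chance alone gives in about 1 of 20 groups. The 6 found hold 4 class means of FM3: complex I assembly factors (gap 0.837 of the range, FM3 at -0.67 and the next mouse at -0.11), complex III (0.836, -0.91 and -0.12), complex V (0.732, -0.79 and -0.14) and complex II (0.717, -0.76 and -0.22). FM3 had the most counts of the fat genes *Adipoq* (796), *Cfd* (6356) and *Ucp1* (95), a proximal tubule marker mean of -0.80 and the highest KBW of the female mutants, and their part in its low values was not tested. In male controls *Cox7b* was high in MC3 (0.71), at 8.68 log2 CPM against 8.35 in the next mouse, and in female controls *Cox4i1* was high in FC5 (0.72), at 10.59 against 9.99.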

How the results depend on the processing

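The direction of the members' median held under every alternative in the joint, male and female comparisons, while the number called did not. In the joint comparison, where 4 were called, the count was 30 at an adjusted p under 0.05, 8 with DESeq2 size factors, 21 with DESeq2's Wald test and 9 with at least 10 counts in every mouse. After the data were seen, fits without FM3 and FM4 (14) and without the 4 libraries over 20 counts of *Ucp1* (1, *Atp5sl*) were added. In males, where 1 was called, it was 24, 12 with the Wald test (13.6%, against 5.45% of all genes called lower), 2 without a low-count filter, 3 without the litter term and 0 with all 20 mice in 1 fit. Between control males and females, where 1 was called, it was 4, 3 with the Wald test, 3 without the litter term (each time *Cox8b*, *Cox6b2* and *Cycs*), and 0 with at least 10 counts in every mouse, which removes *Cox8b*. Between mutant males and females, where none was called, it was 2, 2 with the Wald test and 3 with all 20 mice. With each mouse left out the counts were 0 to 13 (joint), 0 to 7 (males), 1 to 2 (control sexes) and 0 to 1 (mutant sexes), the median KBW slope was -0.45 to 0.0034, and *Cycs* in the joint comparison was -0.12 to 0.0047. *Cycs* turned in sign there without FM3 (0.0047), without FM3 and FM4 (0.0312) and without the libraries over 20 counts of *Ucp1* (0.0095). The cause of these changes was not tested. No paired analysis was possible because the labels give no replicate numbers, and litter was already a covariate. Depth limits *Cox8b*, *Cox4i2* and *Cox6a2*, which had under 60 counts in every library.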

Other observations

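The ratio of *Uqcrc2* to *Uqcrc1* was compared, as a description over 20 mice from 3 litters, with the log2 CPM of 13780 other genes with a mean of at least 1 CPM. Among these genes, the nearest neighbours of *Uqcrc2*, *Crym* before it and *Eef2k* after it on chromosome 7, had Pearson's r of -0.03 and -0.07. The largest value of any of these genes was -0.73, for *Tcp11l2* on another chromosome. Genes with a lower mean were not compared.

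In control mice, 17 regulators of mitochondrial biogenesis were compared between the sexes. In males 3 were lower (17.6%, against 9.02% of all genes), *Esrrb* (-0.67, adjusted p = 6.89e-05), *Ppargc1a* (-0.37, adjusted p = 0.00151) and *Gabpb1* (-0.41, adjusted p = 0.00942), and 1 was higher (5.88%, against 8.75% of all genes), *Sirt3* (0.34, adjusted p = 0.00395), by edgeR's quasi-likelihood test.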
